A study of Mus musculus with 15 samples.

Results

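The mRNAs of 10 integrin chains were followed across mouse Abelson pre-B cells: the alpha chains Itgam, Itgal, Itga2b, Itgav, Itga4 and Itga6 and the beta chains Itgb2, Itgb3, Itgb1 and Itgb7. They were taken by symbol from the union of the authors' 4 deposited tables. All 10 were found among 11551 genes, and the union also held 8 other integrin chains. Each table lists only genes at an authors' adjusted p under 0.05 in 1 comparison between groups, and the members were selected on those authors' values: Itgam and Itgal are in all 4 tables and each of the others in 3. The member just inside that threshold was Itgal in Art against Rag_SPIC_tet_NoDOX, at 0.031 in the authors' deposited table. A member missing from a table has no authors' value to set beside it.

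Abelson lines are early B cells immortalised with the viral oncogene v-Abl, and every sample here had been given imatinib, an inhibitor of that kinase, for 48 h. The 15 libraries form 5 groups of 3. Rag_SPIC_tet_NoDOX, Rag_SPIC_tet_DOX and Rag_SPIC_tet_DOX_shBCLAF1 are Rag -/- Abelson cells whose names give an inducible SPIC construct, the first without DOX (doxycycline) and the other two with it, the last also carrying the shRNA shBCLAF1. Art and Art_shBCLAF1 are Art -/- Abelson cells without and with that shRNA. The series title links RAG breaks, PU.1, SPIC and BCLAF1. No label names a control hairpin, a number of clones, or the source of each replicate, so a p-value reflects the spread between libraries alone, which may be technical. Art against Rag cells compares lines that may differ in more than the named gene.

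Integrins are cell-surface receptors made of 1 alpha and 1 beta chain. They bind matrix proteins or counter-receptors on other cells, and talin and kindlin proteins binding to the beta tail switch them to the high-affinity state. In B-cell progenitors the alpha 4 beta 1 receptor is known for holding cells to marrow stroma. Itgam with Itgb2 is the myeloid receptor Mac-1, and Itga2b with Itgb3 is the fibrinogen receptor of platelets.

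The level of the genes named in the labels was checked first. Bclaf1, the target of the shRNA, was not lower in the libraries carrying it: it was at 7.99 to 8.10 log2 CPM (CPM, read counts scaled to library size) in Rag_SPIC_tet_DOX_shBCLAF1 against 7.69 to 7.76 in Rag_SPIC_tet_DOX. In Art_shBCLAF1 it was at 8.29 to 8.35 against 6.41 to 7.81 in Art. Directions below are therefore those of the libraries labelled shBCLAF1. Spic was at 0.18 to 1.41 in Rag_SPIC_tet_NoDOX, 3.72 to 4.59 in Rag_SPIC_tet_DOX, 7.43 to 7.50 in Rag_SPIC_tet_DOX_shBCLAF1, 0.16 to 0.85 in Art and 4.34 to 4.80 in Art_shBCLAF1. It therefore moved together with the shRNA label, and its part in any integrin value was not tested. Effective library sizes were 17.2 to 27.1 M reads, except for Art replicate 3 at 5.81 M. That library stood 0.942 and 0.95 log2 units (root mean square over genes) from the other two Art libraries, and Rag_SPIC_tet_DOX replicates 1 and 2 stood 0.83 apart, against 0.236 to 0.583 for the other pairs. Counts and calls that moved without Art replicate 3 or Rag_SPIC_tet_DOX replicate 2 are given beside the results.

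All 10 B-lineage markers were in the tables, with a summed level of 9430 to 9830 CPM in Rag_SPIC_tet_NoDOX, 7830 to 11400 in Rag_SPIC_tet_DOX, 7150 to 7450 in Rag_SPIC_tet_DOX_shBCLAF1, 11700 to 12800 in Art and 5570 to 6180 in Art_shBCLAF1. In Art_shBCLAF1 against Art 8 of the 10 were called lower (median -0.92), where 24.1% of all genes were (median 0.05). In Art_shBCLAF1 against Rag_SPIC_tet_DOX_shBCLAF1 8 were called lower as well, where 30.9% of all genes were. In Rag_SPIC_tet_DOX_shBCLAF1 against Rag_SPIC_tet_DOX 3 were called lower and 2 higher, where 25.1% of all genes were lower and 28.5% higher. In Art against Rag_SPIC_tet_NoDOX 7 of the 10 were higher and 3 lower. Only 1 was called there, higher, where 2.58% of all genes were. By the summed level alone Art was highest and Art_shBCLAF1 lowest. The group means of Itgam had the same extremes, although the 2 groups labelled shBCLAF1 overlapped for Itgam. The summed level of the 2 T and NK cell markers in the tables, of 12, was also highest in Art and lowest in Art_shBCLAF1. It was 87.7 to 112 CPM in Art, 56.9 to 61.4 in Rag_SPIC_tet_NoDOX, 41.2 to 50.7 in Rag_SPIC_tet_DOX, 27.3 to 29.0 in Rag_SPIC_tet_DOX_shBCLAF1 and 10.8 to 11 in Art_shBCLAF1. Taken singly, 1 of the 2 was higher and 1 lower in Art than in Rag_SPIC_tet_NoDOX. The part of these markers in the integrin values was not tested. Of 15 myeloid markers 8 were in the tables, summing to 66.3 to 77.9 CPM in Rag_SPIC_tet_NoDOX, 74.2 to 118 in Rag_SPIC_tet_DOX, 29.1 to 31.8 in Rag_SPIC_tet_DOX_shBCLAF1, 34.8 to 37.9 in Art and 77.2 to 79.5 in Art_shBCLAF1. Of 12 megakaryocyte and platelet markers only Gp1ba and Gp5 were in them, at a summed 5.3 to 26.7 CPM, and Pf4, Ppbp, Gp9 and Gp6 were among those not analysed here.

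The sequences just before the start of transcription are shown for 3 members: Itgam and Itga2b, both lower in the Art libraries labelled shBCLAF1, and Itgb7, higher there. They are the 250 bases upstream of the RefSeq start, build GRCm38.p6, read 5′ to 3′ on the gene's strand: Itgam at chr7:128062390-128062639 (plus strand), Itga2b at chr11:102469884-102470133 (minus strand) and Itgb7 at chr15:102231936-102232185 (minus strand). Capitals mark GAGGAA or its reverse complement TTCCTC, a core of the kind that PU.1 and its relatives bind.
Itgam: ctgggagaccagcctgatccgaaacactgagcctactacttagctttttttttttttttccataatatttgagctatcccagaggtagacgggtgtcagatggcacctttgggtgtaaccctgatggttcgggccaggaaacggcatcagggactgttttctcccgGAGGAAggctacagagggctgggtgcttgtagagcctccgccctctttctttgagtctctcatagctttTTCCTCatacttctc
Itga2b: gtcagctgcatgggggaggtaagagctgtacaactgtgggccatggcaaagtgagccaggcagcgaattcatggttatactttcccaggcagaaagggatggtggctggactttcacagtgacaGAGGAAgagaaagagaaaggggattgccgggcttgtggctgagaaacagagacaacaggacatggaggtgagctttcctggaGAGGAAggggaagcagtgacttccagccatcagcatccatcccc
Itgb7: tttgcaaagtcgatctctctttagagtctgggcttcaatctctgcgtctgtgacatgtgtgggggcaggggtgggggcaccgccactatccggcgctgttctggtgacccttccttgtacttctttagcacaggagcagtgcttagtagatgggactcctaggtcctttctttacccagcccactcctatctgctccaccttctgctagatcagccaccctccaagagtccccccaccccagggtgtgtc
The motif was searched on both strands without allowing mismatches. It occurred in both directions before Itgam, 2 times as written before Itga2b and not in this window of Itgb7. Of the 6 members with a window 4 held it (Itgam, Itga2b, Itgb1 and Itgav), against 23.3% of all 32851 windows of that length. Itgb3, Itgb2, Itgal and Itga6 had no window. The motif did not follow direction in all 6. Itgb1, which held it, was higher by 0.39 log2 units in Art_shBCLAF1 than in Art. Itgav, which held it too, was at -0.16, and Itga4, which did not, at 0.01. A link between motif and direction was not tested. These are matches of letters, not measured binding sites. The files carry no coordinates of the build mm9 named in the submitters' processing notes, so only the RefSeq positions are given.

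Itgam (ENSMUSG00000030786) had the widest span of the members. It was at 8.13, 8.03 and 8.09 log2 CPM in the 3 Rag_SPIC_tet_NoDOX libraries, at 7.19, 7.92 and 7.65 in Rag_SPIC_tet_DOX and at 5.16, 5.06 and 5.03 in Rag_SPIC_tet_DOX_shBCLAF1. In Art it stood at 9.79, 9.80 and 9.37, and in Art_shBCLAF1 at 4.35, 5.18 and 4.40. The order was thus Art, then Rag_SPIC_tet_NoDOX, then Rag_SPIC_tet_DOX, each without overlap with the next, followed by the 2 groups labelled shBCLAF1, which overlapped. Mean levels ran from 813 CPM in Art to 26.0 CPM in Art_shBCLAF1. The range of its group means, 5.01 log2 units, was exceeded by 1.3% of all genes, whose median range was 0.93. In bulk RNA fewer expressing cells and less RNA per cell cannot be told apart, here or for any other member.

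Its partner Itgb2 (ENSMUSG00000000290), the beta chain shared by leukocyte integrins, did not follow it. Itgb2 was at 6.15, 6.13 and 6.01 log2 CPM in Rag_SPIC_tet_NoDOX, 6.59, 5.90 and 6.30 in Rag_SPIC_tet_DOX and 6.36, 6.38 and 6.38 in Rag_SPIC_tet_DOX_shBCLAF1. It was at 6.21, 6.24 and 6.76 in Art and 6.61, 6.47 and 6.59 in Art_shBCLAF1. The range of its group means was 0.46, and the Rag_SPIC_tet_DOX libraries alone covered 5.90 to 6.59.

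Itgal (ENSMUSG00000030830), the other partner of Itgb2 among the members and part of LFA-1, had its widest spread inside a single group. Rag_SPIC_tet_DOX replicates 1, 2 and 3 were at 6.43, 2.98 and 5.44 log2 CPM. Elsewhere replicates lay close: 3.89, 3.58 and 3.69 in Rag_SPIC_tet_NoDOX, 2.68, 2.80 and 2.72 in Rag_SPIC_tet_DOX_shBCLAF1, 4.27, 4.35 and 4.11 in Art and 2.84, 2.67 and 2.91 in Art_shBCLAF1. Replicate 2 of Rag_SPIC_tet_DOX lay below every Rag_SPIC_tet_NoDOX library and the other two lay above them. Both groups labelled shBCLAF1 were lower than all other groups.

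Itgb3 (ENSMUSG00000020689), the beta chain of the platelet and vitronectin receptors, had values that fell into 3 tiers. It was at 7.22, 7.13 and 7.12 log2 CPM in Rag_SPIC_tet_NoDOX and at 7.13, 7.16 and 7.36 in Art, which overlapped. Rag_SPIC_tet_DOX libraries stood at 6.15, 6.84 and 6.52. The lowest tier held Rag_SPIC_tet_DOX_shBCLAF1 at 4.17, 3.88 and 3.93 and Art_shBCLAF1 at 3.92, 4.34 and 4.26, again overlapping. The range of its group means was 3.22.

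The alpha partners of Itgb3 differed from it. Itga2b (ENSMUSG00000034664), the platelet alpha chain, was low throughout, with 61 to 266 reads per library. Its values were 2.76, 2.24 and 2.84 log2 CPM in Rag_SPIC_tet_NoDOX, 2.44, 2.38 and 1.99 in Rag_SPIC_tet_DOX, 1.98, 1.85 and 1.76 in Rag_SPIC_tet_DOX_shBCLAF1, 3.36, 3.54 and 3.40 in Art and 1.99, 2.56 and 1.89 in Art_shBCLAF1. Art was above every other library. Itgav (ENSMUSG00000027087), the alpha chain of vitronectin receptors, was at 5.92, 5.86 and 5.99 in Rag_SPIC_tet_NoDOX, 5.67, 5.88 and 5.74 in Rag_SPIC_tet_DOX, 5.63, 5.71 and 5.72 in Rag_SPIC_tet_DOX_shBCLAF1 and 5.37, 5.64 and 5.62 in Art_shBCLAF1. In Art it was at 6.21 and 6.16 in replicates 1 and 2 but at 4.74 in replicate 3, so the group's mean lies where none of its libraries does.

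Among the adhesion receptors that B-lineage cells use on stroma and laminin, Itgb1 and Itga4 had group means within 0.39 and 0.48 log2 units. Itgb1 (ENSMUSG00000025809), the beta chain with the most alpha partners, was at 7.76, 8.04 and 7.91 log2 CPM in Rag_SPIC_tet_NoDOX, 8.19, 8.26 and 8.19 in Rag_SPIC_tet_DOX and 7.98, 8.02 and 8.0 in Rag_SPIC_tet_DOX_shBCLAF1. Art libraries held 7.99, 7.99 and 7.62, and Art_shBCLAF1 libraries 8.26, 8.28 and 8.22. Itga4 (ENSMUSG00000027009), its partner in stromal adhesion, was at 8.36, 8.41 and 8.40 in Rag_SPIC_tet_NoDOX, 8.06, 8.56 and 8.30 in Rag_SPIC_tet_DOX, 7.86, 7.91 and 7.94 in Rag_SPIC_tet_DOX_shBCLAF1, 8.88, 8.86 and 7.17 in Art and 8.21, 8.36 and 8.37 in Art_shBCLAF1. Art replicates 1 and 2 were thus the highest of the 15 libraries for Itga4 and Art replicate 3 the lowest. The Art mean of Itga4 lies where none of its libraries does, and the 15 libraries spanned 1.71 log2 units.

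Itga6 (ENSMUSG00000027111), an alpha chain of laminin receptors, was lowest in Art, at 6.68, 6.68 and 5.62 log2 CPM. In the other groups it was at 7.01, 7.13 and 7.10 (Rag_SPIC_tet_NoDOX), 7.29, 6.86 and 7.07 (Rag_SPIC_tet_DOX), 7.13, 7.22 and 7.26 (Rag_SPIC_tet_DOX_shBCLAF1) and 7.30, 7.32 and 7.34 (Art_shBCLAF1). No Art library overlapped with any other group.

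Itgb7 (ENSMUSG00000001281), the alternative beta partner of Itga4 in gut homing, had its highest level where Itgam had its lowest. Art_shBCLAF1 libraries held 188, 137 and 179 reads, or 3.03, 2.88 and 3.30 log2 CPM. Rag_SPIC_tet_DOX_shBCLAF1 libraries had 28, 43 and 27 reads, or 0.33, 0.75 and 0.02. Rag_SPIC_tet_NoDOX was at 0.91, 0.89 and 0.87 and Art at 0.54, 0.18 and -0.08, the last from 5 reads. Rag_SPIC_tet_DOX spread over 2.49, 0.91 and 1.63, with replicate 2 again nearest to Rag_SPIC_tet_NoDOX. The Art_shBCLAF1 libraries were above all 12 others.

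**Figure D1:**
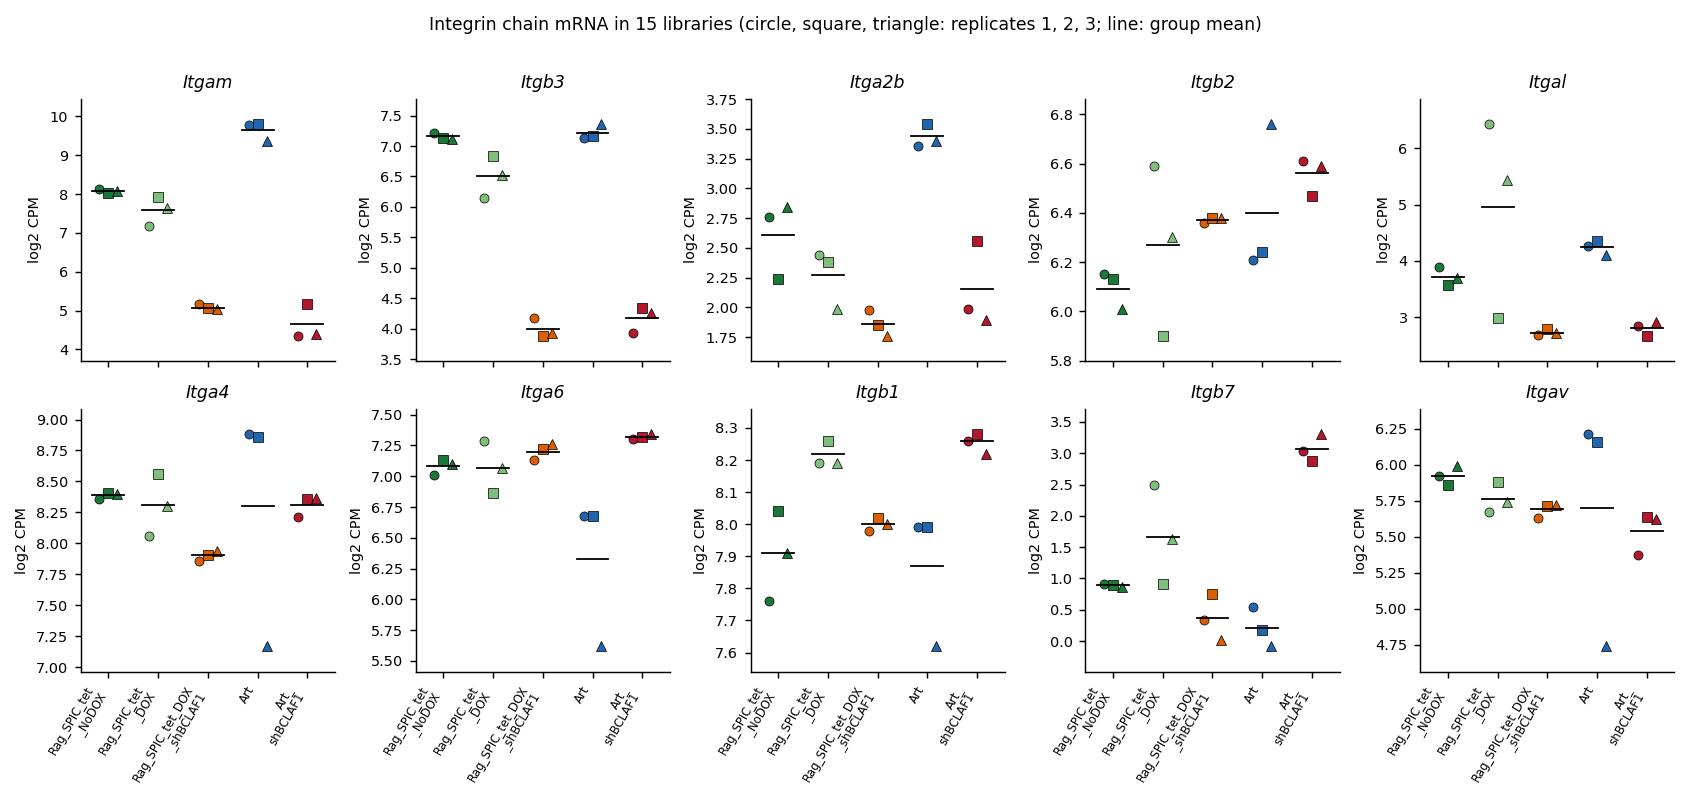
Deposited log2 CPM (vertical axis, scaled for each gene) of the 10 integrin chains in the 15 libraries, by group (horizontal axis). Circles, squares and triangles are replicates 1, 2 and 3 and lines are group means. Itgam and Itgb3 are lowest in the 2 groups labelled shBCLAF1, Itgb7 is highest in Art_shBCLAF1, and Art replicate 3 stands apart for Itga4 (7.17), Itga6 (5.62) and Itgav (4.74).

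Levels of different chains were compared only after dividing CPM by the kilobases of annotated exon. On this log2 CPM per kb scale Itgb1 was the highest member in 4 groups, from 5.88 ± 0.14 (SD, n = 3) in Rag_SPIC_tet_NoDOX to 6.23 ± 0.03 in Art_shBCLAF1. In Art, Itgam led at 7.32 ± 0.25, followed without overlap by Itgb1 at 5.84 ± 0.21. In Rag_SPIC_tet_NoDOX Itgam, at 5.75 ± 0.05, overlapped with Itgb1. Itgam ranked 5 in both groups labelled shBCLAF1, at 2.76 ± 0.07 (Rag_SPIC_tet_DOX_shBCLAF1) and 2.32 ± 0.46 (Art_shBCLAF1), under Itgb1, Itgb2, Itga4 and Itga6. There Itgb2, at 4.76 ± 0.01 and 4.95 ± 0.07, ranked 2, where in Rag_SPIC_tet_NoDOX it ranked 5 at 4.49 ± 0.07. By group mean Itga2b, Itgal and Itgb7 held the lowest 3 places in all 5 groups. In Rag_SPIC_tet_DOX, however, Itgal libraries ran from 0.26 to 3.71 and overlapped with Itgav above it, at 2.24 to 2.46. Itgal and Itgav overlapped in Art as well. In Art_shBCLAF1 Itgb7, at 1.60 ± 0.21, overlapped with Itgb3 above it, at 1.61 ± 0.22.

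**Figure D2:**
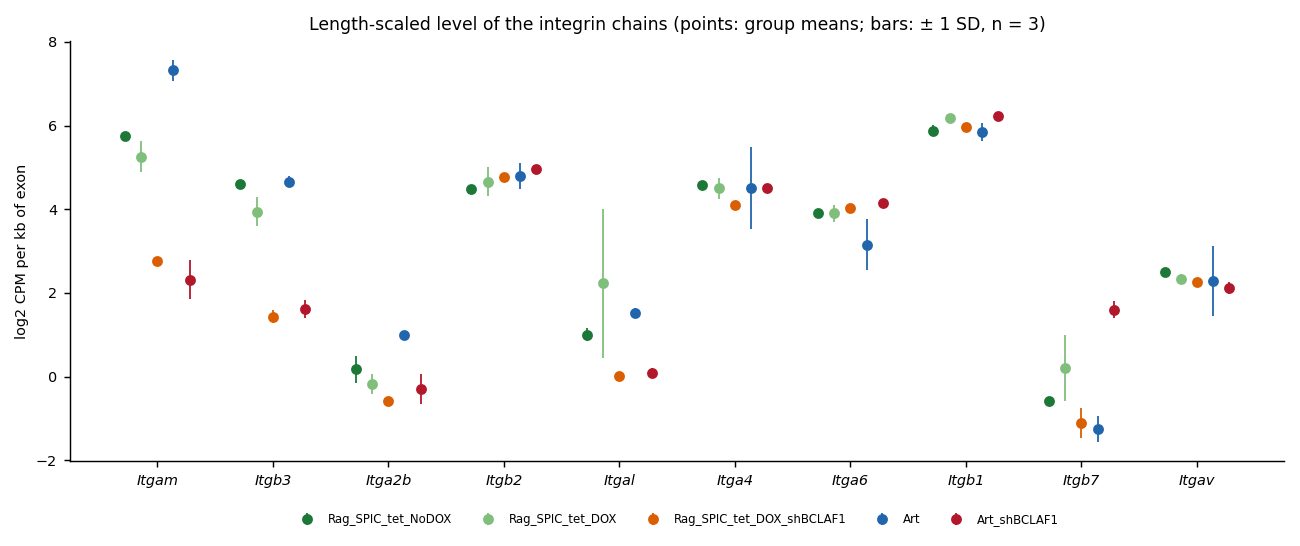
Group means of log2 CPM per kb of exon (vertical axis) for each chain (horizontal axis), coloured by group, with bars of 1 SD over 3 libraries. Itgb1 stays between 5.84 and 6.23, whereas Itgam runs from 7.32 in Art to 2.32 in Art_shBCLAF1.

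Differences between groups were fitted for all 11551 genes with limma, and a gene was called at a Benjamini-Hochberg adjusted p under 0.05. A difference is of mean log2 CPM, positive where the group named first is higher. The 4 comparisons that the deposited tables hold chose the members, so for them the members' differences, given with standard errors (SE), are descriptions, and the counts beside the share of all genes called carry no weight. Every one of the 11551 genes had passed the authors' threshold in at least 1 comparison, so these shares run higher than over a whole transcriptome. The list genes described further below entered in the same way. Their adjusted p-values in the 4 deposited comparisons are therefore not independent of that entry and are descriptions too. Some of these 4 comparisons share a group, Rag_SPIC_tet_NoDOX, Rag_SPIC_tet_DOX or Art, but those of the shRNA label share none with each other.

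Art against Rag_SPIC_tet_NoDOX compares cells that can make but not repair RAG breaks with cells that cannot make them. Itgam was 2.97-fold higher in Art (1.57, SE 0.15). Itga2b differed by 0.82 (SE 0.20) and Itgal by 0.52 (SE 0.14), and each had no overlap between the groups. Itgb3, at 0.06 (SE 0.11), was level. Itgam was the 1 member called of 10, where 5.14% of all genes were called and 2.58% called higher. Groups did not overlap for 6 members, against 37.9% of all genes. Of these 4 were higher, against 18.4% of genes, and 2 lower, against 19.4%. The call of Itgam was lost on leaving out any library but Art replicate 3 (differences of 1.49 to 1.71 over the 6 fits). Without Art replicate 3, 6 members were called and 47.4% of all genes. Itga4 then moved from -0.09 to 0.48, Itgav from -0.22 to 0.26, and Itga6 from -0.75 to -0.40. The authors' deposited table gives 0.46, 0.23 and -0.41 for these 3 genes.

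Rag_SPIC_tet_DOX against Rag_SPIC_tet_NoDOX compares cells with and without DOX, and no label names a control for DOX alone. Itgb3 was lower by 1.57-fold (-0.65, SE 0.16) and was the 1 member called, where 11.8% of all genes were, 8.67% lower and 3.16% higher. Itgam, at -0.49 (SE 0.17), was lower in each library without being called, and Itgb1 was higher by 0.31 (SE 0.09). Itgal at 1.23 (SE 0.76) and Itgb7 at 0.78 (SE 0.38) carried the spread of the Rag_SPIC_tet_DOX libraries. Of the members 3 had groups without overlap, against 40.7% of genes: 1 was higher, against 18%, and 2 were lower, against 22.7%. Without Rag_SPIC_tet_DOX replicate 2, 6 members were called and 39.6% of all genes, with Itgal at 2.21, Itgb7 at 1.17, Itgb3 at -0.82 and Itgam at -0.66. The call of Itgb3 was lost in 4 of the 6 fits that left out 1 library.

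Rag_SPIC_tet_DOX_shBCLAF1 against Rag_SPIC_tet_DOX adds the shRNA label to cells given DOX. Itgb3 was 5.70-fold lower (-2.51, SE 0.18) and Itgam 5.67-fold lower (-2.50, SE 0.18). Itgb7 (-1.31, SE 0.42), Itga4 (-0.40, SE 0.12) and Itgb1 (-0.22, SE 0.05) were the other members called, all lower. That is 5 of 10, where 53.6% of all genes were called and 25.1% called lower. Groups were without overlap for 7 members, all lower, and for 66.1% of genes, 30.6% lower and 35.5% higher. Itgal, at -2.22 (SE 0.80), was at -3.20 without Rag_SPIC_tet_DOX replicate 2, and was then among 6 members called, with 56.2% of all genes. Itgb3 and Itgam were called in all 6 fits that left out 1 library, and Itgb7 in 2. Itgam and Itgb3 alone were called on leaving out any 1 of the Rag_SPIC_tet_DOX_shBCLAF1 libraries.

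Art_shBCLAF1 against Art gave the widest differences. Itgam was 32.1-fold lower (-5.01, SE 0.26), Itgb3 8.24-fold lower (-3.04, SE 0.16), Itgal lower by 1.44 (SE 0.15) and Itga2b by 1.29 (SE 0.22). Itgb7 was 7.25-fold higher (2.86, SE 0.23) and Itga6 was higher by 0.99 (SE 0.30). These 6 members were called, 4 lower and 2 higher, where 49% of all genes were called, 24.1% lower and 25% higher. Groups were without overlap for 7 members, 4 lower and 3 higher, and for 65.6% of genes, 31.7% lower and 33.9% higher. Without Art replicate 3 all 10 were called and 80.1% of all genes, with Itga4 at -0.56 in place of 0.01, Itgav at -0.64 in place of -0.16 and Itga6 at 0.64. Centring each library on its median moved the median of all genes from 0.05 to -0.18 in this comparison. It turned Itgb2 from 0.16 to -0.07 and left Itga6 at 0.76, not called. On that scaling 37.5% of all called genes were higher, against 50.9% before.

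**Figure D3:**
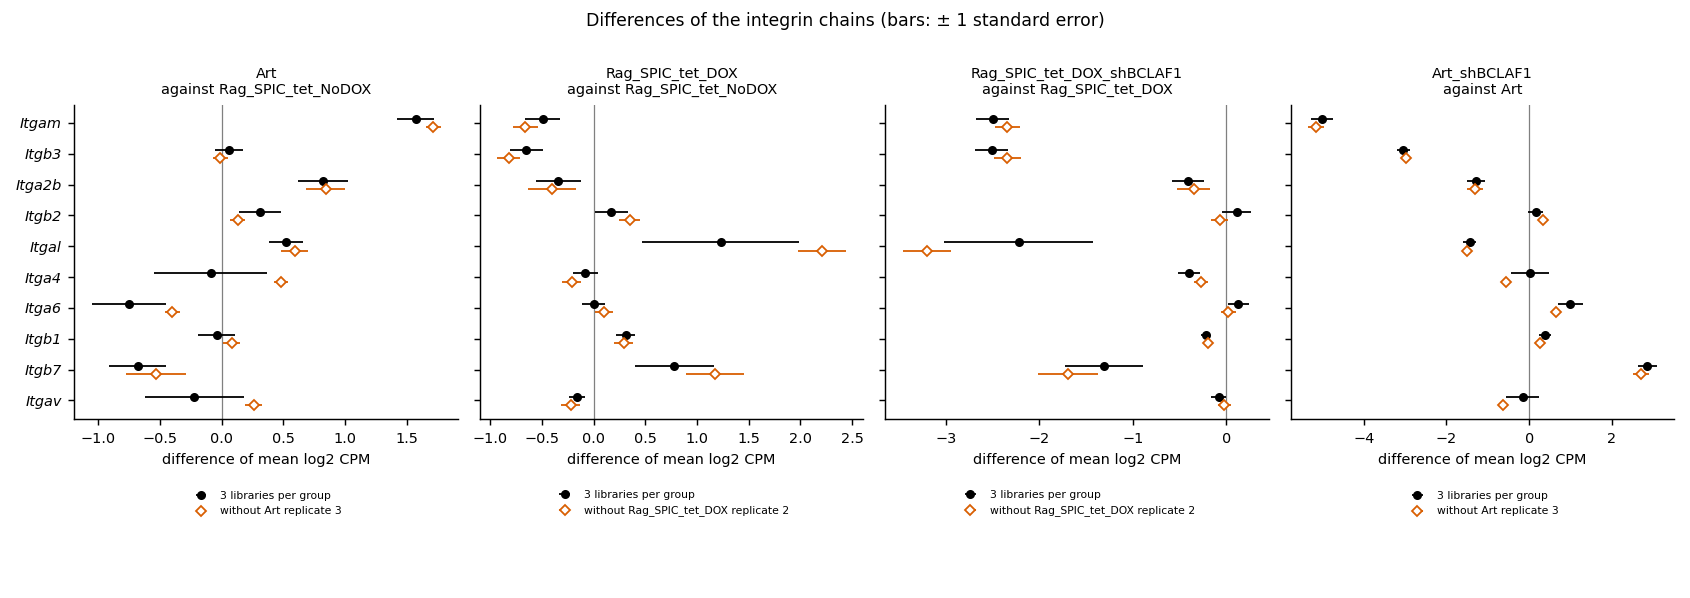
Differences of mean log2 CPM (horizontal axes) of the 10 chains (rows) in the 4 comparisons that the deposited tables hold. Black points use 3 libraries per group, orange diamonds leave out the library named under each panel, and bars are 1 standard error. Itgam and Itgb3 lie left of 0 in both comparisons of the shRNA label, and Itga4 and Itgav change sign in Art against Rag_SPIC_tet_NoDOX without Art replicate 3.

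The other 3 comparisons are in no deposited table, although each is a sum or difference of comparisons that are, from the same libraries. Their p-values are therefore not independent of how the members were chosen. Rag_SPIC_tet_DOX_shBCLAF1 against Rag_SPIC_tet_NoDOX uses neither of the libraries that stand apart. Itgb3 fell 8.96-fold (-3.16, SE 0.07, limma adjusted p = 2.5e-16) and Itgam 7.99-fold (-3.00, SE 0.05, adjusted p = 1.36e-17). Itgal (-0.99), Itga2b (-0.75), Itgb7 (-0.52), Itga4 (-0.48) and Itgav (-0.24) fell as well, at limma adjusted p from 2.23e-08 for Itga4 to 0.0393 for Itgb7. Itgb2 rose by 0.28 (adjusted p = 0.000108). Itga6 was called at 0.12 although its groups overlapped, and it stood at -0.03 after centring on library medians. Itgb1 was not called, at 0.09 with a 95% interval of -0.03 to 0.22. The count of 9 called members (7 lower, 2 higher) stands beside 79.7% of all genes called, 38.7% lower and 41% higher. Groups did not overlap for 8 members (7 lower, 1 higher), beside 81.2% of genes, 39.3% lower and 41.8% higher. With all 15 libraries in one fit 3 members kept their call, Itgam, Itgb3 and Itga2b, and Itgal (adjusted p = 0.173), Itgb2 (0.176), Itgb7 (0.202), Itga4 (0.243), Itgav (0.51) and Itga6 (0.663) lost theirs. Itgb7 kept its call in 1 of the 6 fits that left out 1 library. Centring moved the share of called genes that were higher from 51.5% to 41.1%, and the median of all genes from 0.02 to -0.13.

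Art_shBCLAF1 against Rag_SPIC_tet_DOX_shBCLAF1 compares the labelled libraries of the lines directly. Itgb7 was 6.51-fold higher in Art_shBCLAF1 (2.70, SE 0.19, limma adjusted p = 1.12e-07). Itga4 (0.41, adjusted p = 2.86e-05), Itgb1 (0.26, adjusted p = 0.000339) and Itgb2 (0.19, adjusted p = 0.00853) were higher too. Itgam was called lower (-0.44, adjusted p = 0.0342), but its groups overlapped and 5 of the 6 fits that left out 1 library lost the call. The difference of Itgb3 was 0.18, with a 95% interval of -0.07 to 0.43 and an adjusted p of 0.194. With all 15 libraries in one fit Itgb7 alone was called. In the fit of these 6 libraries 5 members were called, 4 higher and 1 lower, beside 59.7% of all genes, 28.8% higher and 30.9% lower. Groups did not overlap for 5 members, all higher, beside 65.3% of genes, 31.5% higher and 33.9% lower.

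An interaction term over 12 libraries tested whether the difference that goes with the shRNA label was the same in Art as in Rag_SPIC_tet_DOX cells. Itgb7 was higher with the label in Art and lower in Rag_SPIC_tet_DOX cells, a difference of 4.17 (SE 0.51, limma adjusted p = 0.000233). The fall of Itgam was greater in Art by 2.50 log2 units (an interaction of -2.50, SE 0.34, adjusted p = 0.000389). Itgb1 differed by 0.61 (adjusted p = 0.0105) and Itga2b by -0.88 (adjusted p = 0.0349). For Itgb3 no difference was called (-0.53, 95% interval -1.09 to 0.02, adjusted p = 0.132). The 4 members called, 2 in each direction, stand beside 31.3% of all genes, 14.3% positive and 17% negative. Itgb7, Itgam and Itgb1 were called in all 12 fits that left out 1 library and Itga2b in 5. Without Rag_SPIC_tet_DOX replicate 2 Itgb3 was called as well (-0.70, adjusted p = 0.0373) as was Itgal (1.77), among 6 members and 35.3% of all genes. Without Art replicate 3, 6 members were called beside 54.4% of all genes, Itgav (-0.56) and Itga6 (0.51) being those added.

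**Figure D4:**
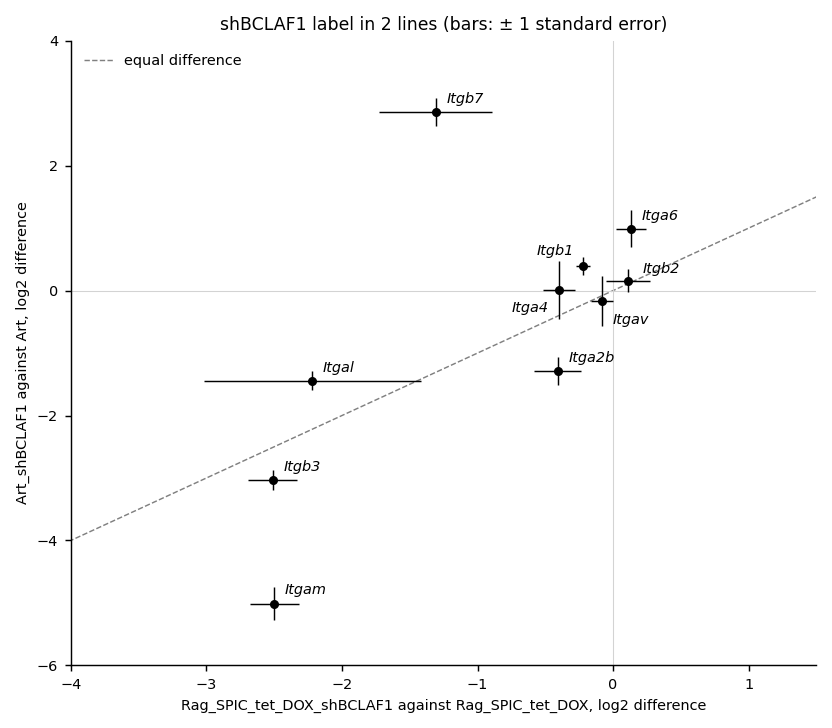
Each point is a chain, placed by its difference with the shRNA label in Rag_SPIC_tet_DOX cells (horizontal axis, log2) and in Art cells (vertical axis, log2), with bars of 1 standard error. The dashed line marks equal differences. Itgb3 (-2.51 and -3.04) lies near the line, Itgam (-2.50 and -5.01) below it and Itgb7 (-1.31 and 2.86) far above it.

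The 8 other integrin chains in the tables, of 17 listed, gave the following counts. In Art_shBCLAF1 against Art 6 fell and 1 rose, where 24.1% of all genes fell and 25% rose, and the median was -0.89 against 0.05 for all genes. Itgax (-2.72, SE 0.28, adjusted p = 0.000645), which like Itgam pairs with Itgb2 on myeloid cells, fell the most. Its libraries held 134, 82 and 31 reads in Art and 24, 10 and 14 in Art_shBCLAF1. Itgad, another Itgb2 partner, fell by 1.26 and Itga10, a collagen receptor chain, by 1.10. Itga8, which pairs with Itgb1, rose by 1.21, from 18, 12 and 7 reads to 47, 38 and 35.

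In Rag_SPIC_tet_DOX_shBCLAF1 against Rag_SPIC_tet_DOX 3 of these chains fell and 2 rose, where 25.1% of all genes fell and 28.5% rose. Without Rag_SPIC_tet_DOX replicate 2, 4 fell and 1 rose, where 56.2% of all genes were called. Itgb5, a further beta partner of Itgav, fell 9.03-fold (-3.18, SE 0.21, adjusted p = 0.000223), from 3.78, 4.57 and 4.31 log2 CPM to 0.97, 1.04 and 1.11. Itga9, which pairs with Itgb1, fell by 2.12 and Itgax by 1.87. Itgb4, the laminin-receptor partner of Itga6, rose 3.73-fold (1.90, SE 0.19, adjusted p = 0.000773), to 3.28, 3.43 and 3.41. Itgb4 showed no such level in Art_shBCLAF1, at 1.37, 1.22 and 1.80, and the interaction was -1.97 (adjusted p = 0.00343). The interaction was 2.20 for Itgb5 (adjusted p = 0.000863), 1.54 for Itga9 and 2.12 for Itga8.

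In Rag_SPIC_tet_DOX against Rag_SPIC_tet_NoDOX 2 of them fell, Itgax (-1.48, SE 0.29, limma adjusted p = 0.0244) and Itga10 (-0.66), where 8.67% of all genes fell. That number was 5 without Rag_SPIC_tet_DOX replicate 2, where 39.6% of all genes were called. In Art against Rag_SPIC_tet_NoDOX none of the 8 was called by limma. There 3 fell without Art replicate 3, where 47.4% of all genes were called. Rag_SPIC_tet_DOX_shBCLAF1 against Rag_SPIC_tet_NoDOX had 6 lower and 1 higher, where 38.7% of all genes were lower and 41% higher, led by Itgb5 (-3.52), Itgax (-3.35), Itgad (-2.51) and Itga9 (-2.39). Between the labelled lines 5 were higher in Art_shBCLAF1 and 2 lower, where 28.8% of all genes were higher and 30.9% lower, with Itgad at 2.04, Itgb5 at 2.02, Itga8 at 1.74 and Itgb4 at -1.91. Itgad rests on few reads: 24, 23 and 23 in Rag_SPIC_tet_NoDOX, 5, 3 and 10 in Rag_SPIC_tet_DOX_shBCLAF1 and 17, 19 and 20 in Art_shBCLAF1. Itga8 had 16, 9 and 22 in Rag_SPIC_tet_DOX_shBCLAF1 and 47, 38 and 35 in Art_shBCLAF1.

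**Figure D5:**
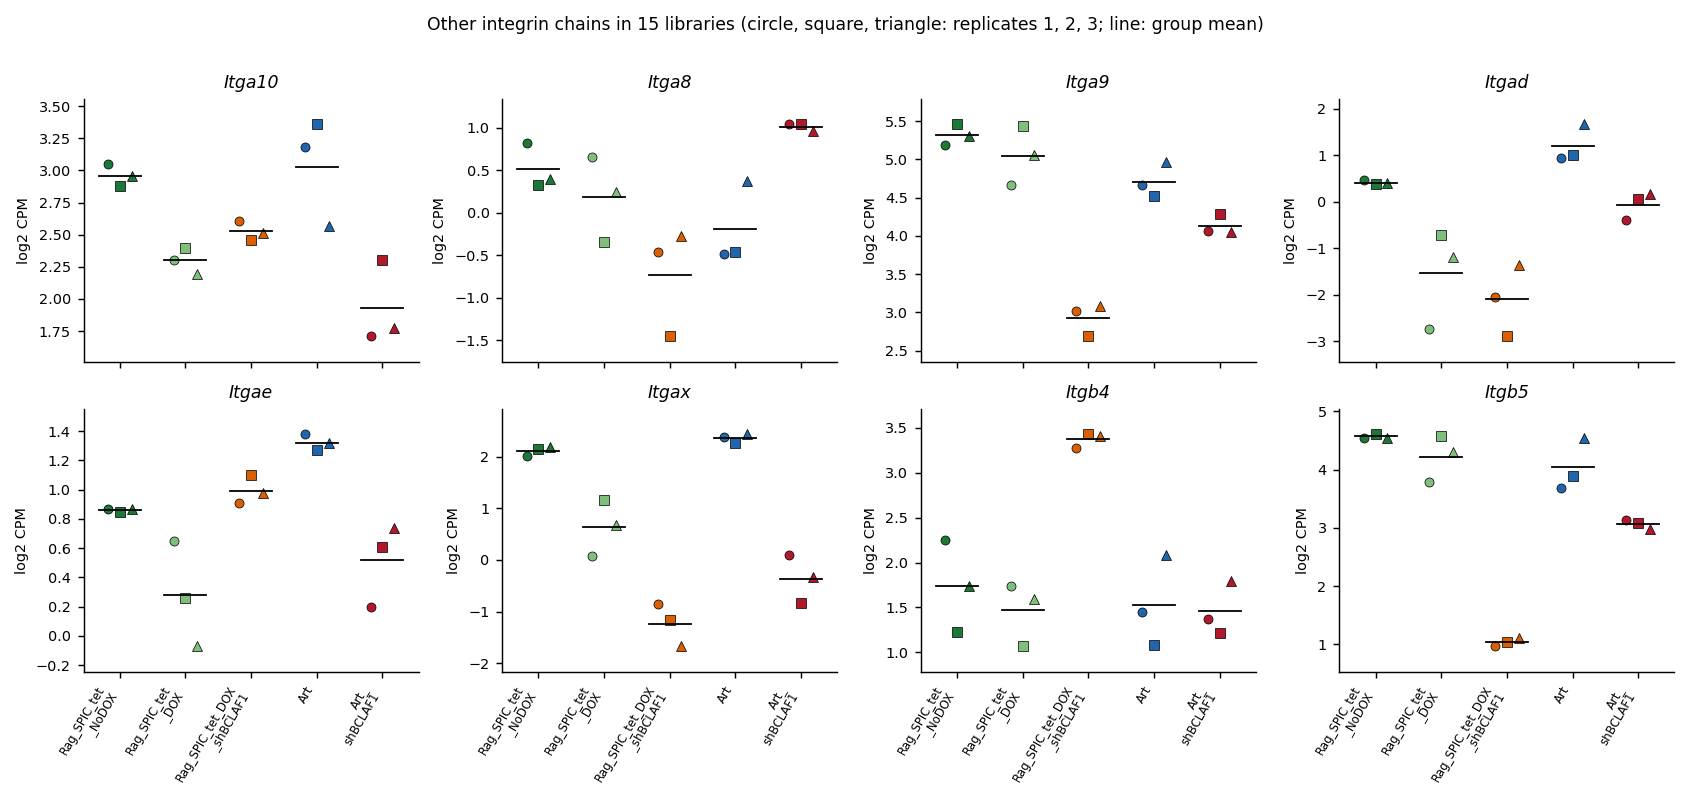
Deposited log2 CPM (vertical axis, scaled for each gene) of the 8 other integrin chains in the 15 libraries, by group (horizontal axis). Circles, squares and triangles are replicates 1, 2 and 3 and lines are group means. Itgb5 and Itga9 are lowest and Itgb4 highest in Rag_SPIC_tet_DOX_shBCLAF1, and Itgax is low in both groups labelled shBCLAF1.

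Of 40 genes for integrin activation and adaptors 34 were in the tables. In Art_shBCLAF1 against Art 13 fell and 7 rose, where 24.1% of all genes fell and 25% rose (median -0.31, and 0.05 for all genes). Without Art replicate 3, 17 fell and 12 rose, where 80.1% of all genes were called. Fermt1, a kindlin, had 88, 43 and 16 reads in Art and 0 in each Art_shBCLAF1 library, at least 60.1-fold lower with 0 set to 3 reads over the group. Fyb, an adaptor between immune receptors and integrins, had 95 reads in the 3 Art libraries and 2 in Art_shBCLAF1, a ratio of 58.3 (95% interval 15.7 to 488, counting error only). Skap1, its binding partner, fell 4.76-fold (-2.25, adjusted p = 0.000804). Ptk2, the focal adhesion kinase, rose 4.67-fold (2.22, SE 0.12, adjusted p = 0.000105).

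The same list in Rag_SPIC_tet_DOX_shBCLAF1 against Rag_SPIC_tet_DOX gave 10 higher and 10 lower, where 28.5% of all genes were higher and 25.1% lower, with a median of 0.10 beside 0.05 for all genes. Fyb had 257 reads in the Rag_SPIC_tet_DOX libraries and 0 in those labelled shBCLAF1, at least 97-fold lower. Actn1, an actin crosslinker at adhesions, fell by 1.63 (adjusted p = 0.000762) and Kank2, a talin-binding protein, by 1.33. The interaction was called for 11 of the 34, 8 of them negative, where 31.3% of all genes were called, so the share is near the background. Without Art replicate 3, 12 were negative and 7 positive, where 54.4% of all genes were called. Rasgrp2, the Rap1 activator upstream of talin, was among them at -1.83 (adjusted p = 4.02e-05), as were Rapgef3, another Rap1 activator, at -1.90 and Parvb, a parvin of adhesion complexes, at -2.66.

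In the comparisons without the label, 3 adaptors were called in Art against Rag_SPIC_tet_NoDOX: Fermt1 (2.15) and Skap1 (1.46) rose and Tln2, a talin, fell (-0.68). The share of all genes called was 5.14%. Without Art replicate 3, 16 rose and 5 fell, where 47.4% of all genes were called. In Rag_SPIC_tet_DOX against Rag_SPIC_tet_NoDOX 5 rose and 3 fell, where 3.16% of all genes rose and 8.67% fell. Without Rag_SPIC_tet_DOX replicate 2, 10 rose and 5 fell, where 39.6% of all genes were called. After median centring 3 rose and 4 fell, where 16.8% of all called genes were higher. Bcar1, an adhesion scaffold, fell by 1.85 (from 43, 26 and 27 reads to 13, 11 and 8) and Rapgef3 by 1.51. Ptk2 rose by 0.53 and Apbb1ip, which links Rap1 to talin, by 0.52. In Rag_SPIC_tet_DOX_shBCLAF1 against Rag_SPIC_tet_NoDOX 16 rose and 12 fell, where 41% of all genes rose and 38.7% fell. After median centring 12 rose and 15 fell, where 41.1% of all called genes were higher. Art_shBCLAF1 against Rag_SPIC_tet_DOX_shBCLAF1 had 10 higher and 12 lower, where 28.8% of all genes were higher and 30.9% lower. Parvb at -1.74, Lims2, an adaptor of the integrin-linked kinase complex, at -1.34 and Ptk2 at 0.99 were among them. Lims2 had only 5, 5 and 8 reads in Art_shBCLAF1 and 24, 18 and 18 in Rag_SPIC_tet_DOX_shBCLAF1.

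Integrin ligands numbered 14 of 34 in the tables. In Rag_SPIC_tet_DOX against Rag_SPIC_tet_NoDOX 7 fell and none was called higher by limma, where 8.67% of all genes fell, and the median was -0.67 against 0.00. Lama5, a laminin chain, fell 5.45-fold (-2.45, SE 0.17, adjusted p = 0.00203), from 3.52, 3.35 and 3.52 log2 CPM to 1.06, 1.19 and 0.80. F11r, a junctional ligand of LFA-1, fell by 1.78, Lama3, another laminin chain, by 1.29 and Madcam1, the gut-homing ligand of Itga4 with Itgb7, by 1.13. The count was also 7 without Rag_SPIC_tet_DOX replicate 2, where 39.6% of all genes were called. In Art against Rag_SPIC_tet_NoDOX no ligand was called by limma. There 4 rose and 2 fell without Art replicate 3, where 47.4% of all genes were called.

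With the shRNA label 10 ligands fell and 1 rose in Art cells (median -1.26), where 24.1% of all genes fell and 25% rose. In Rag_SPIC_tet_DOX cells 6 fell and 5 rose (median -0.23), where 25.1% of all genes fell and 28.5% rose. Lamb1, a laminin chain, fell by 2.02 in Art cells. F11r fell by 3.7 (adjusted p = 0.000163) in Art cells and fell by 2.34 (adjusted p = 0.00431) in Rag_SPIC_tet_DOX cells. Madcam1 had 102 reads in Art and 1 in Art_shBCLAF1, a ratio of 125 (95% interval 22.0 to 4990). Lama5 rose by 2.32 (adjusted p = 0.00022) in Rag_SPIC_tet_DOX cells, back to 3.36, 3.42 and 3.25 log2 CPM. Thbs1, a matrix ligand of Itgb3 receptors, had 46, 48 and 57 reads in Rag_SPIC_tet_DOX_shBCLAF1 and at most 2 in any other library. Icam1, the main ligand of Itgal with Itgb2 and named here after its values were seen, fell by 1.27 (adjusted p = 0.00385) in Art cells and by 0.39 (adjusted p = 0.00241) in Rag_SPIC_tet_DOX cells.

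Of 13 tetraspanins and integrin partners 11 were in the tables. Cd44, a hyaluronan receptor, fell 6.4-fold with the label in Rag_SPIC_tet_DOX cells (-2.68, SE 0.14, adjusted p = 0.000146) and 3.51-fold in Art cells (-1.81, SE 0.22, adjusted p = 0.00124). In the former 5 of the 11 fell and 1 rose, where 25.1% of all genes fell and 28.5% rose. In the latter 2 fell and 3 rose, where 24.1% of all genes fell and 25% rose. The balance in Art cells turned to 5 lower and 3 higher without Art replicate 3, where 80.1% of all genes were called. It was 3 lower and 2 higher after median centring, where 37.5% of all called genes were higher, against 50.9% before. Plaur, the urokinase receptor, had 2 reads in Art and 39 in Art_shBCLAF1, a ratio of 15.9 (95% interval 4.12 to 136). Slc3a2, the heavy chain of an amino-acid transporter that binds beta integrin tails, rose 3.51-fold in Art cells (1.81, adjusted p = 0.00237). Cd36, a thrombospondin receptor, fell by 1.4 in Rag_SPIC_tet_DOX cells. There the tetraspanin Cd151 fell by 0.54 and the tetraspanin Cd37 rose by 0.62. Cd47, a partner of Itgb3 receptors, was higher by 0.59 in Art_shBCLAF1 than in Rag_SPIC_tet_DOX_shBCLAF1. In Rag_SPIC_tet_DOX against Rag_SPIC_tet_NoDOX 2 fell, Cd44 (-0.64) and Tspan32 (-0.37), where 8.67% of all genes fell. The counts were 3 lower and 1 higher without Rag_SPIC_tet_DOX replicate 2, where 39.6% of all genes were called. None was called by limma in Art against Rag_SPIC_tet_NoDOX. There 4 rose and 3 fell without Art replicate 3, where 47.4% of all genes were called.

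The genes whose log2 CPM ran most like that of Itgam over the 15 libraries, among 10220 compared, were Ret (Pearson r 0.997), Pbxip1 (0.990), Slc17a5 (0.988), Lzts2 (0.988) and Irs2 (0.987). For Itgb3 they were Sdc1 (0.994), Dcaf8 (0.993), Ift172 (0.991), Afap1 (0.991) and Pou6f1 (0.991). Itgam and Itgb3 themselves had an r of 0.95, and Itgam and Itga2b 0.84. These values describe 5 groups of libraries rather than 15 independent points.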

How the data were processed

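RNA-seq of 15 libraries was used as 4 deposited tables. Per the labels, RNA was prepared with TruSeq and sequenced paired end, and the submitters' processing notes list, without saying what each did, the build mm9 and the tools limma, edgeR, featureCounts 1.4.5 and Subread. The tables hold the authors' log2 CPM per library, their log2 fold changes and their adjusted p-values. Taking 0.5 reads as added before the log, 100% of deposited values under 1000 reads came out whole within 0.05 reads. The authors' p-values were used only to say how genes entered the tables. After merging 152 duplicate rows, 11551 genes remained.

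Differences were fitted on the deposited log2 CPM with limma 3.58.1 (R 4.3.3, trended empirical Bayes, two-sided) using the libraries compared, with Benjamini-Hochberg adjustment over all genes and a threshold of 0.05. The fit was tested on simulated data. Members and lists were chosen with earlier results of these data known. All 10 members are named, and list genes come from the up to 4 called with the largest change per comparison, not all of which are described. Likeness used the 5 most correlated genes with mean log2 CPM of at least 1. Levels per kb used GENCODE M21 exon lengths. Floors of 3 reads over a group and 95% intervals cover counting error only. Alternatives were all libraries in one fit, library weights, a replicate block, median centring, a filter on low values, 2 added reads and leaving out each library. List counts without the libraries that stand apart and folds against the floor were added after seeing the data.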

Additional observations from a re-analysis of the deposited data

Results flagged for a closer look

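The difference that goes with the shBCLAF1 label was itself different between Art and Rag_SPIC_tet_DOX cells for 19 of the genes named, by a limma interaction term with an adjusted p under 0.05. All but the integrin chains followed were named because this interaction was called, so the count of 19 carries no weight. Of all genes 31.3% were called. A negative value means a more negative difference in Art. Among the 10 integrin chains followed, the interaction was -2.50 for Itgam, -0.88 for Itga2b, 0.61 for Itgb1 and 4.17 for Itgb7. Among other integrin chains it was -1.97 for Itgb4, 1.54 for Itga9, 2.12 for Itga8 and 2.20 for Itgb5. The ligands had -6.74 for Thbs1, -3.19 for Lama5, -1.75 for Lamb2 and 1.82 for Spp1. Adaptors had -3.75 for Fermt1, -2.66 for Parvb, -1.90 for Rapgef3 and -1.83 for Rasgrp2. Partners had -0.74 for Cd82, 0.87 for Cd44 and 1.32 for Slc3a2. The fitted values of Thbs1 and Fermt1 rest on groups with 0 reads in some libraries and depend on the reads added, so they are no bounds.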

How the results depend on the processing

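The counts of members called depended most on library weighting and on which libraries set the spread. With library weights 8 members were called in Art against Rag_SPIC_tet_NoDOX, 9 in Rag_SPIC_tet_DOX against Rag_SPIC_tet_NoDOX, 10 in Art_shBCLAF1 against Art and 10 in the interaction, although the weights stopped before reaching their tolerance. With all 15 libraries in one fit the counts were 3 in Art against Rag_SPIC_tet_NoDOX, 1 in Art_shBCLAF1 against Rag_SPIC_tet_DOX_shBCLAF1 and 3 in Rag_SPIC_tet_DOX_shBCLAF1 against Rag_SPIC_tet_NoDOX. Same-numbered libraries had correlations of deviations from group means of -0.23 to 0.20. With 3 libraries per group, these cannot settle whether the numbers pair the libraries. With a replicate block limma called 0 members in Art against Rag_SPIC_tet_NoDOX (4 at an unadjusted p under 0.05) and 0 in Rag_SPIC_tet_DOX against Rag_SPIC_tet_NoDOX (3 unadjusted). Median centring also gave 0 there (3 unadjusted), where 10% of all genes were called. The shares of all genes called with library weights, with all 15 libraries in one fit or with a replicate block are not given. Those counts of members therefore cannot be set against a background.

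Leaving out each library in turn gave 0 to 6 members called in Art against Rag_SPIC_tet_NoDOX, 0 to 6 in Rag_SPIC_tet_DOX against Rag_SPIC_tet_NoDOX, 2 to 6 in Rag_SPIC_tet_DOX_shBCLAF1 against Rag_SPIC_tet_DOX and 5 to 10 in Art_shBCLAF1 against Art. It gave 4 to 7 in Art_shBCLAF1 against Rag_SPIC_tet_DOX_shBCLAF1, 7 to 9 in Rag_SPIC_tet_DOX_shBCLAF1 against Rag_SPIC_tet_NoDOX and 3 to 6 in the interaction. The shares of all genes called moved too. Dropping Art replicate 3 took them from 5.14% to 47.4% in Art against Rag_SPIC_tet_NoDOX and from 49% to 80.1% in Art_shBCLAF1 against Art. Shares are given only for fits without Art replicate 3 or Rag_SPIC_tet_DOX replicate 2, not for fits without any other library. These ranges of called members therefore cannot be set against a background.

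Leaving out 1 library changed signs in the deposited comparisons too. In Art against Rag_SPIC_tet_NoDOX this held for Itga4 (-0.37 to 0.48), Itgav (-0.47 to 0.26), Itgb1 (-0.11 to 0.08) and Itgb3 (-0.01 to 0.10), and in Art_shBCLAF1 against Art for Itga4 (-0.56 to 0.30) and Itgav (-0.64 to 0.09). In Rag_SPIC_tet_DOX against Rag_SPIC_tet_NoDOX it held for Itga4 (-0.21 to 0.04) and Itga6 (-0.11 to 0.10), and in Rag_SPIC_tet_DOX_shBCLAF1 against Rag_SPIC_tet_DOX for Itgb2 (-0.07 to 0.27). Library weights turned Itga4 to 0.47, Itgav to 0.22 and Itgb1 to 0.07 in Art against Rag_SPIC_tet_NoDOX and Itga4 to -0.53 in Art_shBCLAF1 against Art. Centring turned Itgb1 to 0.01 in the former and Itga4 to -0.22 and Itgb2 to -0.07 in the latter. In the other comparisons, after centring, Itga6 was at -0.03 and Itgb1 at -0.06 in Rag_SPIC_tet_DOX_shBCLAF1 against Rag_SPIC_tet_NoDOX. The interaction of Itgb2 was -0.08 after centring, -0.11 without Rag_SPIC_tet_DOX replicate 1, -0.05 without Art replicate 1 and -0.03 without Art replicate 2. That of Itga4 was -0.16 with library weights and -0.16 without Art replicate 3. That of Itgav was 0.17 without Art replicate 1, 0.14 without Art replicate 2 and 0.00 without Art_shBCLAF1 replicate 1. Over all fits that left out 1 library the interaction ran from -0.11 to 0.23 for Itgb2, -0.16 to 0.70 for Itga4 and -0.56 to 0.17 for Itgav. The cause was not tested. Both planned count-model tests were not run, since the deposited unit is log2 CPM. Depth limits Itgb7 and Itga2b most, with 5 reads for Itgb7 in Art replicate 3.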
